A study of Mus musculus with 8 samples.

Results

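The genes described here are 35 genes of tRNA charging and of the amino acid response that the transcription factor ATF4 directs. They were taken by symbol from the deposited expression table of 21878 genes, and all 35 were found. They comprise 20 genes for cytosolic aminoacyl-tRNA synthetase chains, 6 for enzymes of amino acid and one-carbon synthesis, 2 for amino acid transport, 4 for transcription factors of the response and 3 for its feedback and stress effectors. The study sequenced RNA from wild-type C57BL/6 mouse astrocytes isolated on the day of birth (P0). One group held 4 untreated libraries, and the other 4 libraries from cells exposed to a mixture of IL-1α, TNFα and C1q, here called the cocktail, which was used to make the cells reactive and positive for C3d. Both groups were brain astrocyte preparations of the same strain and age. The labels give neither time nor dose. They also do not say whether the libraries of a group came from separate cultures or animals, so the spread that p-values rest on is that between libraries and may be technical.

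Aminoacyl-tRNA synthetases join each amino acid to its tRNA, the step that supplies translation. When amino acids run short, or when unfolded protein, viral RNA or heme deficiency activates a kinase of the translation initiation factor eIF2, general translation slows while ATF4 protein is made more efficiently from its mRNA. ATF4 then activates genes for synthetases, for asparagine and serine synthesis and for amino acid transporters, a programme called the integrated stress response. Much of that control acts on translation and cannot be read from mRNA levels. In the brain, astrocytes are the main makers of serine from glucose and pass it on to neurons.

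Values are FPKM, fragments scaled to gene length and library depth, so levels can be compared between genes. Depth lay between 19195898 and 20640490 fragments per library. Tests were limma fits across the 11845 genes that reached 1 FPKM in 4 or more of the 8 libraries. Changes are given on the log2(FPKM + 1) scale, and a gene was called at a Benjamini-Hochberg adjusted p under 0.05. Of the 35 genes 34 passed that filter, and Trib3 did not. The summed level of 9 astrocyte markers was 1052 to 1188 FPKM in untreated and 845 to 872 FPKM in cocktail libraries. Of its 9 markers 7 fell and 2 rose. Markers of other cell types were also detected. Mural genes (5) summed to 560 to 630 FPKM in untreated and 125 to 139 FPKM in cocktail libraries, most of it Acta2 (mean 581 and 111 FPKM), while Pdgfrb stood at 20.4 and 16.4 FPKM. Neuronal genes (7) summed to 139 to 157 FPKM and 49.5 to 56.2 FPKM, most of it Stmn2 (125 and 38.8 FPKM), and Tubb3 was not called. Oligodendrocyte lineage genes (7) summed to 166 to 176 FPKM in untreated and 97.0 to 102 FPKM in cocktail libraries, and ependymal genes (4) to 125 to 140 FPKM and 71.8 to 84.4 FPKM. Fibroblast genes (5) summed to 95.7 to 117 FPKM and 76.7 to 101.5 FPKM, with Lum, Dcn and Pdgfra higher and Col1a1 and Col1a2 lower. The 14 microglial genes summed to 15.2 to 17.99 FPKM in untreated libraries and to 18.5, 20.8, 43.6 and 60.3 FPKM in cocktail libraries 1 to 4. Of 8 microglial genes tested 5 rose, and none of the 14 was at 0 in every library. The 5 endothelial genes summed to 4.64 to 5.07 FPKM in untreated and 1.15 to 1.46 FPKM in cocktail libraries, with Cldn5 at 0 in every library. The fall was that of Kdr (mean 3.99 and 0.616 FPKM), the only endothelial gene tested, while Cdh5 stood at 0.568 and 0.580 FPKM. The part of other cell types in the changes below was not tested. Cocktail libraries 3 and 4 were apart from 1 and 2 in the microglial sum, and calls that changed without either pair are given with the gene. In such bulk samples, fewer cells of a type and less RNA per cell cannot be told apart.

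Transcripts for tRNA charging and for ATF4 itself were higher in cocktail-treated astrocytes, while those for serine synthesis and for the large neutral amino acid transporter were lower. Of the 34 genes tested, 20 rose (58.8%) and 8 fell (23.5%), against 26.6% called higher and 41.1% called lower among all genes tested. The median log2 change was 0.13 over these genes and -0.05 over all genes. For 25 of the 34 genes no cocktail library fell within the untreated range or the reverse, against 62.7% of all genes. These were 17 with higher values, against 24.1% of all genes, and 8 with lower values, against 38.5%. The direction went with the role of the gene: 17 of 20 synthetase genes and 3 of 4 transcription factor genes rose, while 4 of 6 synthesis genes and both transport genes fell. The rises were small, and no tested gene of the 35 changed 2-fold. When libraries were rescaled by median ratios, 23 rose and 8 fell, and the share of rises among all calls went from 39.3% to 51.9%.

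**Figure D1:**
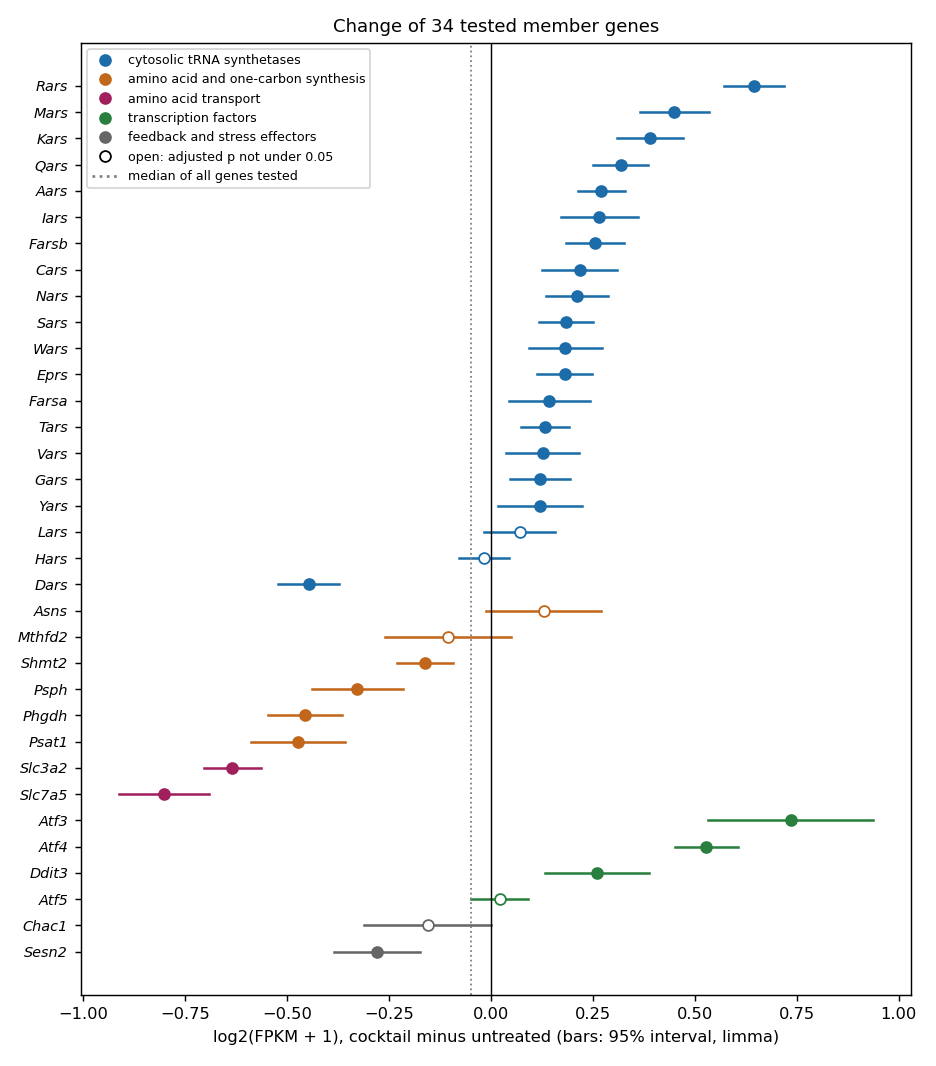
Change of each of the 34 tested genes on the log2(FPKM + 1) scale, cocktail minus untreated, with 95% intervals from limma, coloured by role (filled: called; open: not called; dotted line: median of all genes tested). Synthetase genes lie to the right of 0 except Dars and Hars, and serine synthesis and transport genes lie to the left.

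ATF4 works with a CEBP partner at a composite element in the promoters of its targets, whose core can be written TGATGNAA or, on the other strand, TTNCATCA. The 250 bases before each start were searched on both strands in RefSeq promoters of GRCm38.p6, the assembly that the mm10 build of the submitters' notes names. The table held 29 promoters for 27 of the 35 genes. Cars, Hars, Lars, Nars, Rars, Vars, Wars and Slc7a5 were not among them. The core was found in 6 of the 29 promoters and in 3.45% of all 32851 promoters. These 6 stretches are shown because they carry the letters of that core, with the match in capitals, 5′ to 3′ along the strand of the gene.
Aars (chr8:111033690-111033777, plus strand): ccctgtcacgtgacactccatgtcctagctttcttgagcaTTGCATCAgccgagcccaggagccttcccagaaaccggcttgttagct
Atf3 (chr1:191183396-191183483, minus strand): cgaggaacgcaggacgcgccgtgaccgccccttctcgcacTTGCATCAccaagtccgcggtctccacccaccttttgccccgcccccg
Chac1 (chr2:119351009-119351096, plus strand): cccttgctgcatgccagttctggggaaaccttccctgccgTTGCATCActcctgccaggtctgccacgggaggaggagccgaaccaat
Tars (chr15:11399659-11399713, minus strand): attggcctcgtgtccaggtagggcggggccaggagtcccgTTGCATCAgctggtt
Gars (chr6:55037931-55038000, plus strand): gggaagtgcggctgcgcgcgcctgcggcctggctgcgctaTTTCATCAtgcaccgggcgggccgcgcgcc
Asns (chr6:7693210-7693272, minus strand): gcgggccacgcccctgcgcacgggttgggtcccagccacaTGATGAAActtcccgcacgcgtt
The first 4 share the letters TTGCATCA. The match began 112 bases before the start in Aars, 110 in Atf3, 193 in Chac1, 15 in Tars, 30 in Gars and 23 in Asns, where the element is the classical amino acid response element. The Aars stretch lies inside the gene (111027778 to 111055569), so the start used there is not the first base of the gene. A match is a stretch of letters and was not tested for binding.

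Further motifs were counted in the same windows. The STAT site letters TTCNNNGAA stood in 3 of the 29, those of Aars, Kars and Shmt2, and in 7.02% of all promoters. The interferon-stimulated response element, searched as GAAA and GAAA with any 2 bases between, stood in 1, that of Qars, and in 2.98% of all promoters. CCAAT or its reverse ATTGG stood in 16 of the 29 and in 33.8% of all promoters.

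Synthetase genes were considered first. Of the 20 genes 17 rose, Dars fell, and Hars and Lars did not pass the test. For 15 of them the groups were apart, against 62.7% of all genes. Of these, 14 had higher values, against 24.1% of all genes, and Dars had lower values, against 38.5%. The median log2 change of the 20 was 0.18, and their summed level went from 547 ± 6.25 FPKM in untreated to 623 ± 8.54 FPKM in cocktail libraries (SD, n = 4), 1.14-fold. FPKM summed over all genes was also higher in cocktail libraries, at 346644 to 350322 against 324333 to 326881 in untreated libraries. How much of the small synthetase rises goes with that difference in totals was not tested. Levels of the 20 genes in untreated cells ran from 9.52 FPKM for Cars to 53.3 FPKM for Nars.

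Rars encodes arginyl-tRNA synthetase, a subunit of the multi-synthetase complex, and showed the largest change of the 20. It stood at 25.0, 23.9, 25.2 and 26.5 FPKM in untreated libraries 1 to 4 and at 40.2, 39.1, 39.4 and 40.8 FPKM in cocktail libraries 1 to 4. Every cocktail library lay above every untreated one. The fold in mean FPKM was 1.59 (log2 change 0.65, standard error 0.034; limma, adjusted p = 7.5e-09). The gene lies on chromosome 11 from 35808381 to 35834528 of GRCm38.

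Mars, the methionyl-tRNA synthetase gene, stood at 15.3, 14.3, 13.8 and 15.2 FPKM in untreated and at 19.96, 20.15, 20.97 and 20.39 FPKM in cocktail libraries. These groups were also apart, by 0.45 on the log2 scale (standard error 0.038; limma, adjusted p = 6.1e-07). Mars shares 68 bases of exon with Ddit3, which lies on the opposite strand; whether the counting used strand is not stated in the labels. Kars, which encodes lysyl-tRNA synthetase, stood at 42.0, 41.2, 44.2 and 45.5 FPKM in untreated and at 54.9, 58.2, 58.6 and 56.0 FPKM in cocktail libraries. The lowest cocktail library exceeded the highest untreated one, and the difference was 0.39 on the log2 scale (standard error 0.037; limma, adjusted p = 1.4e-06).

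Qars, the glutaminyl-tRNA synthetase gene, was nearly even among untreated libraries, at 38.0, 37.3, 37.7 and 38.0 FPKM. It stood at 46.9, 45.0, 48.3 and 49.0 FPKM in cocktail libraries, all above the untreated range. The log2 difference was 0.32 (standard error 0.031; limma, adjusted p = 1.9e-06).

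Of the 17 rises, 13 besides these 4 had log2 changes between 0.12 (Yars) and 0.27 (Aars). Aars, the alanyl enzyme whose promoter stretch is shown above, went from 33.4 ± 0.721 to 40.4 ± 0.365 FPKM (SD, n = 4; log2 change 0.27). Its exons share 1326 bases with Exosc6 on the same strand, so fragments of the pair could have been counted together. Tars and Gars, the threonyl and glycyl enzymes with a match in the promoter, had log2 changes of 0.13 and 0.12. Farsa and Farsb, the catalytic and the partner chain of phenylalanyl-tRNA synthetase, went from 17.1 to 19.0 FPKM and from 16.1 to 19.4 FPKM. Farsb shares 248 bases of exon with Sgpp2 on the opposite strand.

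Iars, Cars, Nars, Sars and Eprs, which charge isoleucine, cysteine, asparagine and serine and, in the dual enzyme of Eprs, glutamate and proline, rose with log2 changes of 0.27, 0.22, 0.21, 0.18 and 0.18. Wars, the tryptophanyl enzyme known to be induced by interferon gamma, stood at 29.0, 30.1, 30.0 and 27.2 FPKM in untreated and at 33.82, 34.83, 31.82 and 31.96 FPKM in cocktail libraries. Its log2 change of 0.18 (limma, adjusted p = 0.0017) was near the median of the 20 synthetases, in libraries where the interferon-inducible gene Gbp2 was 7.05-fold higher. The calls of Farsa, Vars and Gars rested on particular libraries. Farsa and Vars were not called without cocktail libraries 1 and 2 (limma, adjusted p = 0.14 and 0.18), and Gars was not called without cocktail libraries 3 and 4 (limma, adjusted p = 0.085). Yars, the tyrosyl enzyme (limma, adjusted p = 0.039), kept its call in 9 of 18 alternatives, over which its adjusted p ran from 0.0029 to 0.20, the highest without cocktail libraries 3 and 4. Yars was among the calls lost without untreated library 2 (limma, adjusted p = 0.11) or 3 (0.084) and without cocktail library 2 (0.088), 3 (0.11) or 4 (0.058).

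Dars, which encodes the aspartyl enzyme of the same multi-synthetase complex as Rars, Mars, Kars and Qars, went the other way. It stood at 52.9, 50.8, 52.6 and 50.2 FPKM in untreated and at 36.1, 36.4, 39.1 and 38.8 FPKM in cocktail libraries. The groups did not overlap, and Dars was 1.37-fold lower in mean FPKM (log2 change -0.45, standard error 0.034; limma, adjusted p = 2.2e-07). In untreated cells it was the second most abundant of the 20, after Nars. Its log2 change lay between -0.50 and -0.37 over the 18 alternatives. The gene lies on chromosome 1 from 128363707 to 128417416.

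Hars, the histidyl enzyme, stood at 34.3 ± 0.412 and 33.9 ± 0.925 FPKM (SD, n = 4), with a 95% interval of the log2 change from -0.08 to 0.04. Its sign turned, to 0.06, after median-ratio rescaling (limma, adjusted p = 0.11) and, to 0.01, without cocktail libraries 3 and 4 (limma, adjusted p = 0.76). Lars, the leucyl enzyme, stood at 21.9 ± 1.09 and 23.0 ± 0.797 FPKM (SD, n = 4), with an interval from -0.02 to 0.16, and was called higher after median-ratio rescaling (limma, adjusted p = 0.0070).

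**Figure D2:**
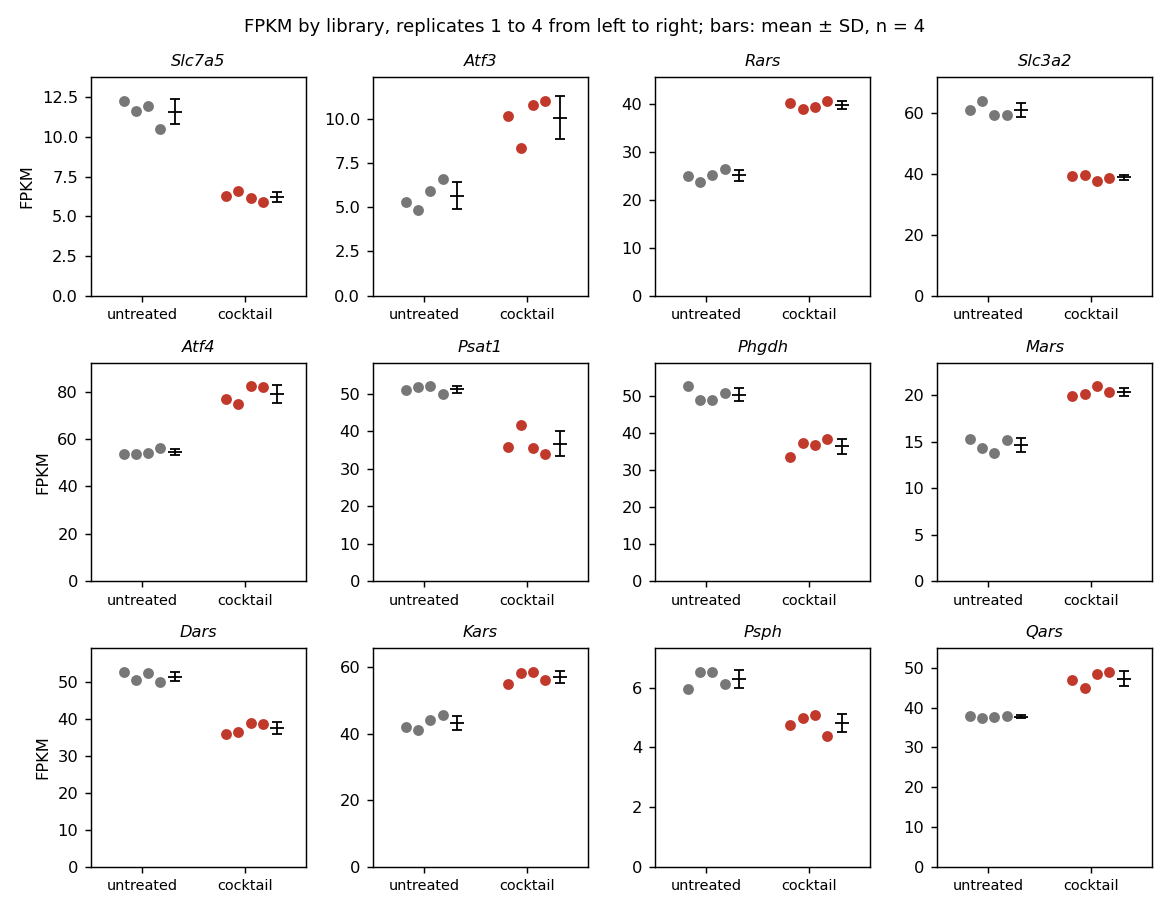
FPKM in each library (grey: untreated, red: cocktail; replicates 1 to 4 from left to right) for the 12 genes with the largest called changes, with the mean and SD of 4 libraries beside each group; each axis starts at 0. The groups overlap in none of the 12 panels. Picking the largest called changes favours such genes, and 62.7% of all genes tested had groups apart.

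The transcription factors rose except Atf5. Atf4 had the highest FPKM of the 35 genes in cocktail cells. It stood at 53.9, 53.7, 54.1 and 56.2 FPKM in untreated and at 76.7, 74.9, 82.3 and 82.1 FPKM in cocktail libraries. All cocktail libraries were higher, libraries 3 and 4 more so than 1 and 2. Atf4 was 1.45-fold higher in mean FPKM (log2 change 0.53, standard error 0.035; limma, adjusted p = 6.6e-08). Without cocktail libraries 3 and 4, where microglial markers were higher, the log2 change was 0.47 and the call was kept. Atf4 lies on chromosome 15 from 80255184 to 80257545.

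Atf3, a stress-induced factor that shares targets with ATF4, stood at 5.27, 4.82, 5.89 and 6.62 FPKM in untreated and at 10.12, 8.351, 10.75 and 11.02 FPKM in cocktail libraries. The groups were apart, and its log2 change of 0.73 was the largest rise of the 34 tested genes (standard error 0.092; limma, adjusted p = 1.9e-05). Without cocktail libraries 3 and 4 it was 0.62 (limma, adjusted p = 0.00044). Ddit3, which encodes the pro-apoptotic factor CHOP, stood at 4.31, 4.86, 4.85 and 5.01 FPKM in untreated and at 6.21, 5.51, 5.52 and 6.37 FPKM in cocktail libraries. Its lowest cocktail library lay above its highest untreated one by less than 1 FPKM, and the log2 difference was 0.26 (standard error 0.058; limma, adjusted p = 0.0018). Ddit3 shares 68 exon bases with Mars, as given above.

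Atf5, a factor related to ATF4 and also under translational control, stood at 52.2, 50.3, 49.8 and 51.9 FPKM in untreated and at 54.0, 50.5, 50.1 and 52.7 FPKM in cocktail libraries. The groups overlapped. The 95% interval of its log2 change ran from -0.05 to 0.09 (limma, adjusted p = 0.57), and after median-ratio rescaling it was called higher at 0.10 (limma, adjusted p = 0.019).

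Serine is made from a glycolytic intermediate in 3 steps, and all 3 enzyme genes fell. Phgdh encodes the first and committed enzyme, phosphoglycerate dehydrogenase. It stood at 52.6, 49.0, 48.9 and 50.9 FPKM in untreated and at 33.6, 37.2, 36.6 and 38.3 FPKM in cocktail libraries, with no overlap. Phgdh was 1.38-fold lower (log2 change -0.46, standard error 0.041; limma, adjusted p = 1.0e-06).

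Psat1, the aminotransferase of the middle step, stood at 51.0, 51.8, 52.0 and 49.9 FPKM in untreated and at 35.9, 41.6, 35.4 and 33.8 FPKM in cocktail libraries. Cocktail library 2 was the highest of its group and still below all untreated libraries. The log2 difference was -0.47 (standard error 0.053; limma, adjusted p = 6.7e-06). Psph, the phosphatase that ends the pathway, was a far less abundant transcript, at 5.96, 6.53, 6.53 and 6.13 FPKM in untreated and 4.76, 4.98, 5.10 and 4.39 FPKM in cocktail libraries. The groups did not overlap, and the log2 difference was -0.33 (standard error 0.051; limma, adjusted p = 0.00011). Psph shares 452 exon bases with a Cct6a transcript on the opposite strand.

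Shmt2, the mitochondrial enzyme that splits serine into glycine and a one-carbon unit, fell from 17.6 ± 0.408 to 15.6 ± 0.268 FPKM (SD, n = 4; log2 change -0.16). Mthfd2, which carries that unit onward in mitochondrial folate metabolism, stood at 4.11 ± 0.512 and 3.74 ± 0.189 FPKM (SD, n = 4), with a 95% interval of the log2 change from -0.26 to 0.05. It was called lower without untreated library 2 (log2 change -0.17; limma, adjusted p = 0.018).

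Asns, asparagine synthetase and the textbook ATF4 target, did not pass the test. It stood at 6.54, 6.82, 7.16 and 7.93 FPKM in untreated and at 7.22, 7.44, 8.67 and 8.17 FPKM in cocktail libraries, which overlapped. The log2 change was 0.13 with a 95% interval from -0.01 to 0.27 (limma, adjusted p = 0.095). The call depended on the libraries: it was passed without cocktail libraries 1 and 2 (log2 change 0.22; limma, adjusted p = 0.019), without cocktail library 1 (0.17; adjusted p = 0.049), without untreated library 4 (0.18; adjusted p = 0.027) and with the replicate number as a block (adjusted p = 0.036). Without cocktail libraries 3 and 4 it was 0.04 (limma, adjusted p = 0.62). After median-ratio rescaling it was called at 0.20 (limma, adjusted p = 0.015).

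Slc7a5 and Slc3a2 encode the light chain LAT1 and the heavy chain of the exchanger that brings in leucine and other large neutral amino acids. Slc7a5 stood at 12.3, 11.6, 11.9 and 10.5 FPKM in untreated and at 6.29, 6.57, 6.14 and 5.86 FPKM in cocktail libraries. Every cocktail library was far below every untreated one. Slc7a5 was 1.86-fold lower, the largest change of the 34 tested genes in either direction (log2 change -0.80, standard error 0.051; limma, adjusted p = 4.2e-08). It lies on chromosome 8 from 121881146 to 121907686.

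Slc3a2, the most abundant of the 35 genes in untreated cells, stood at 61.0, 64.0, 59.2 and 59.1 FPKM in untreated and at 39.4, 39.5, 37.7 and 38.7 FPKM in cocktail libraries. The groups were again apart, 1.57-fold (log2 change -0.63, standard error 0.032; limma, adjusted p = 4.8e-09). Slc7a11, which encodes the cystine-glutamate exchanger chain that pairs with the same heavy chain, moved the opposite way. It stood at 2.84, 2.66, 3.56 and 3.03 FPKM in untreated and at 19.8, 17.9, 19.7 and 18.1 FPKM in cocktail libraries, 6.25-fold higher (log2 change 2.31; limma, adjusted p = 3.5e-11). In untreated cells Slc7a5 exceeded Slc7a11 in every library, and in cocktail cells Slc7a11 exceeded Slc7a5 in every library.

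Among feedback genes, Sesn2, a leucine sensor that restrains mTORC1, fell from 29.4 ± 0.973 to 24.1 ± 1.78 FPKM (SD, n = 4; log2 change -0.28; limma, adjusted p = 0.00027). Chac1, which degrades glutathione, was low, at 1.84, 1.79, 2.03 and 1.85 FPKM in untreated and at 1.43, 1.98, 1.46 and 1.51 FPKM in cocktail libraries. Cocktail library 2 alone lay within the untreated range. With it the 95% interval of the log2 change ran from -0.31 to 0.00085 (limma, adjusted p = 0.072), and without it Chac1 was called lower (log2 change -0.22; limma, adjusted p = 0.0054), as it was without cocktail libraries 1 and 2 (-0.21; adjusted p = 0.018). Chac1 rested on 45 to 64 fragments per library. Trib3, a pseudokinase that inhibits ATF4, stood at 0.653, 0.508, 0.510 and 0.402 FPKM in untreated and at 0.752, 0.833, 1.19 and 0.817 FPKM in cocktail libraries, on 17 to 50 fragments. All 4 cocktail libraries were higher, and in a fit without the filter on low values its log2 change was 0.32 (limma, adjusted p = 0.0062).

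The wider pathway was read from lists of related genes. Among 17 genes around eIF2, 8 rose (47.1%) and 2 fell (11.8%), with a median log2 change of 0.09. The list held genes for eIF2, its exchange factor and its kinases, and also Eif2a, Ppp1r15a, Ppp1r15b, Gcn1l1 and Impact. Of all genes tested, 26.6% rose and 41.1% fell. The kinase genes Eif2ak3 (PERK, which responds to unfolded protein), Eif2ak2 (PKR, which responds to double-stranded RNA) and Eif2ak1 (the heme-regulated kinase) went from 10.9 to 14.9, from 23.6 to 31.4 and from 26.7 to 30.5 FPKM. Eif2ak4, the kinase GCN2 that senses uncharged tRNA, stood at 5.91 ± 0.362 and 5.32 ± 0.273 FPKM (SD, n = 4; log2 change -0.13; limma, adjusted p = 0.041). Eif2b2, a subunit of the exchange factor, had the largest change of the list, 0.46. The other gene called lower was Ppp1r15a, the phosphatase subunit GADD34 that reverses eIF2 phosphorylation, at -0.10 (limma, adjusted p = 0.024). Neither was called lower after median-ratio rescaling, nor without either pair of cocktail libraries.

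Of 29 tested genes among other known ATF4 and CHOP targets, 18 rose (62.1%) and 5 fell (17.2%), against 26.6% and 41.1% of all genes, with a median log2 change of 0.22. Nupr1, a stress-induced chromatin protein, was 10.2-fold higher, from 8.76 ± 1.08 to 89.2 ± 8.44 FPKM (SD, n = 4). Cebpb, which encodes a partner of ATF4 and is also an inflammatory regulator, was 3.93-fold higher, and Slc1a5, a glutamine and neutral amino acid transporter, 3.60-fold. The 5 that fell, Eif4ebp1 (the translation inhibitor 4E-BP1), Slc7a1 (a cationic amino acid transporter), Nars2 (the mitochondrial asparaginyl enzyme), Bbc3 (the pro-apoptotic PUMA) and Map1lc3b (the autophagy protein LC3B), had log2 changes of -0.425, -0.25, -0.21, -0.17 and -0.15.

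Among 20 tested enzymes of serine, glycine and folate metabolism outside the 35 genes, 11 fell (55.0%) and 4 rose, with a median log2 change of -0.22. Aldh1l1, a folate enzyme that also marks astrocytes, and Mthfd1, the cytosolic folate enzyme, had log2 changes of -0.70 and -0.70. Aldh1l2, the mitochondrial counterpart of Aldh1l1, rose with a log2 change of 0.53. Among all genes tested 41.1% were called lower.

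Synthetases of the mitochondrion are encoded by a separate set of nuclear genes. Of 21 tested genes 5 rose (23.8%, against 26.6% of all genes), 4 fell (19.1%, against 41.1%) and 12 were not called, with a median log2 change of 0.01. Gatb (an amidotransferase subunit that makes charged glutamine tRNA), Sars2 and Aars2 rose, with log2 changes of 0.44, 0.42 and 0.26. After median-ratio rescaling 10 of the list rose. Among 6 scaffold and accessory genes 1 rose (16.7%, against 26.6% of all genes) and 3 fell (50%, against 41.1%). The scaffold gene Aimp1 had a log2 change of 0.18. Aimp2, also a scaffold gene, had -0.16 (limma, adjusted p = 0.033). Its call was kept in 10 of 18 alternatives. It was among those not kept when untreated library 2 (limma, adjusted p = 0.062) or 4 (0.097) or cocktail library 2 (0.092) or 3 (0.079) was left out, without cocktail libraries 1 and 2 (0.10), and after median-ratio rescaling (0.20). Tarsl2, a second threonyl enzyme, and Ppa1, which removes the pyrophosphate that charging releases, had log2 changes of -0.71 and -0.84.

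Endoplasmic reticulum genes controlled by the IRE1 and ATF6 arms of the unfolded protein response were read beside these. Of 16 genes 12 rose and 4 fell, against 26.6% and 41.1% of all genes, with a median log2 change of 0.26, and Hspa5, the chaperone BiP, led with 0.69. Xbp1 and Sdf2l1 had log2 changes of 0.58 and 0.48.

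**Figure D3:**
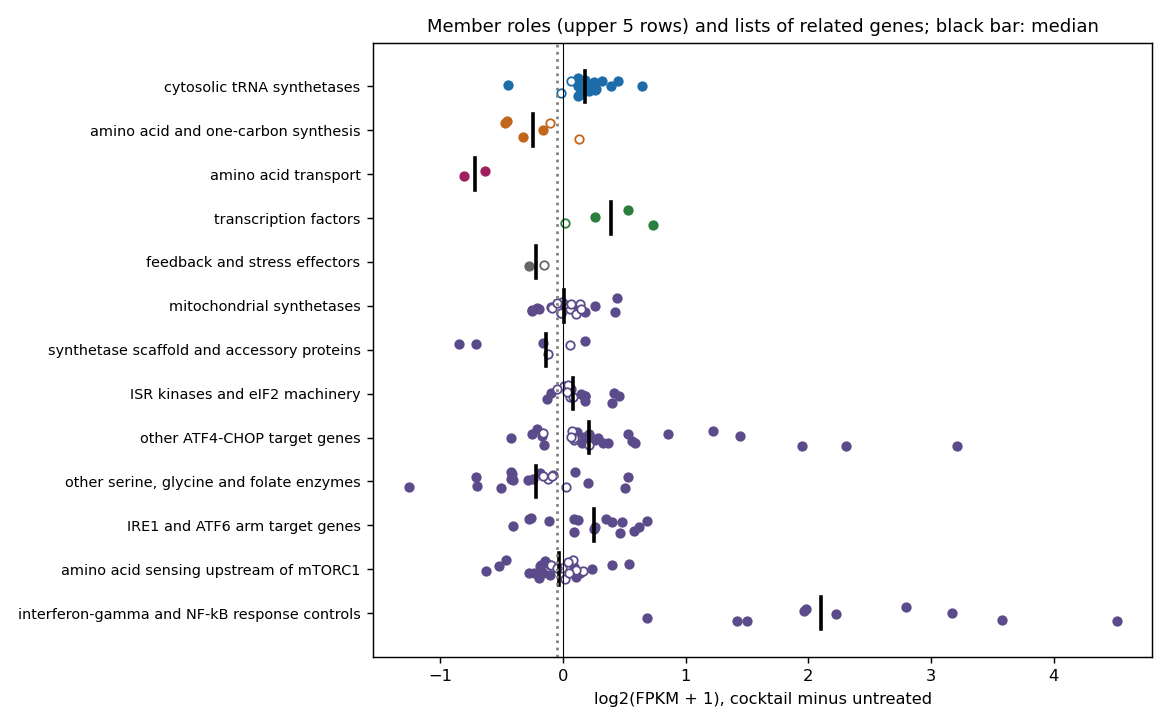
Log2 change of each tested gene by role of the 35 genes (upper 5 rows) and by list of related genes (lower 8 rows), with the median as a black bar, filled points for called genes and a dotted line at the median of all genes. Cytosolic synthetases have a median of 0.18 and mitochondrial synthetases of 0.01.

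The changes were compared across scalings and sets of libraries. Of the 34 tested genes, 33 kept 1 sign in all 18 alternatives that tested them, the exception being Hars, and 25 kept their call or lack of it. Without cocktail libraries 3 and 4, 15 of the 20 synthetase genes were called higher, and without cocktail libraries 1 and 2 also 15. Among all 11845 genes tested, 2823 and 2990 were called higher in these settings. Dars, Phgdh, Psat1, Psph, Shmt2, Slc7a5, Slc3a2 and Sesn2 were called lower in all 18 alternatives.

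**Figure D4:**
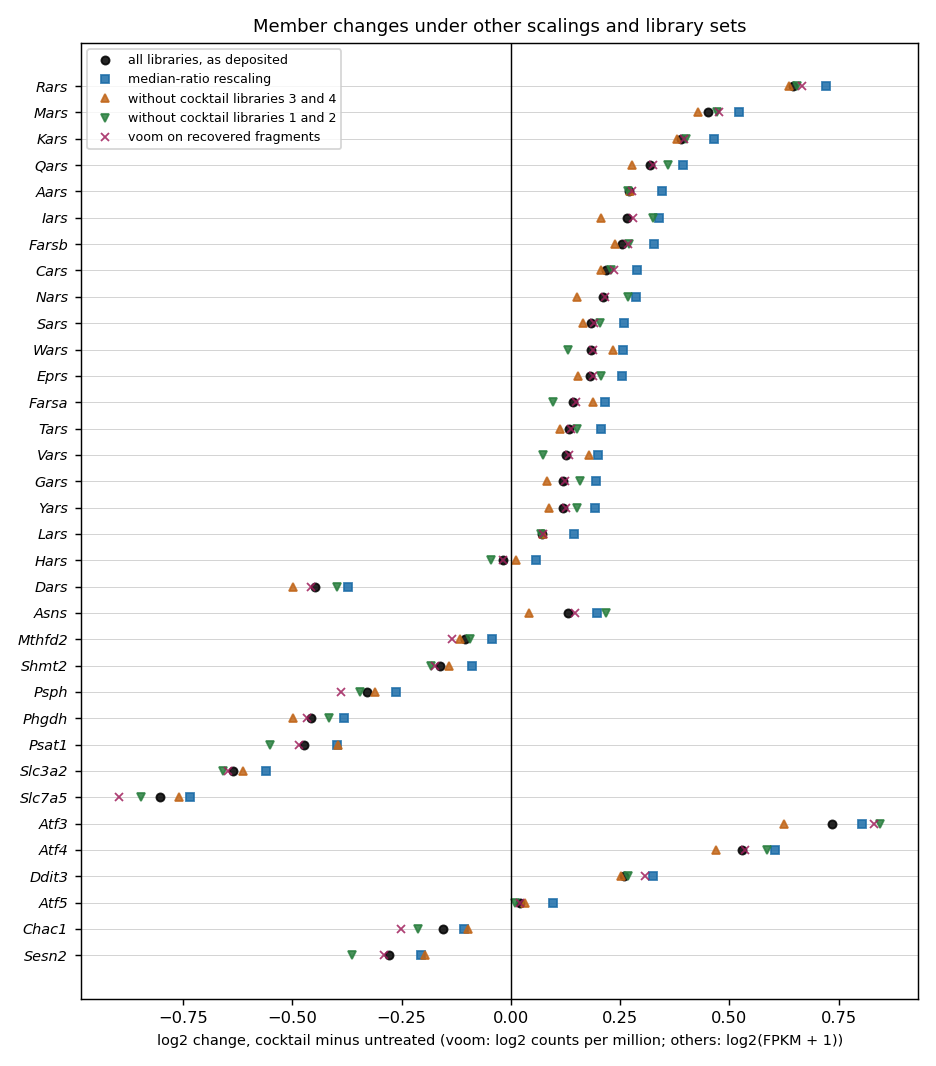
Log2 change of the 34 tested genes over all libraries as deposited, after median-ratio rescaling, without either pair of cocktail libraries and with voom on recovered fragments. Rescaling moves every gene to the right by about the same amount, and only Hars has points on both sides of 0.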

How the data were processed

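The authors deposited FPKM values per gene, in a table with gene symbols. The submitters' processing notes name the build mm10 and DESeq, with no role. The aligner, counter and treatment of multi-mapping fragments are not given in the sources used. Per the labels' protocols, libraries came from a stranded mRNA kit. Columns were matched to samples by the labels' descriptions and groups taken from titles, since the treatment labels of 3 cocktail libraries spell C1q with other digits.

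The main test fitted log2(FPKM + 1) in limma 3.58.1 under R 4.3.3, without covariates, letting the prior variance follow mean expression; it was two-sided, with Benjamini-Hochberg adjustment over 11845 genes. This scale understates changes of low genes. Within a gene, FPKM of different libraries stood in whole-number ratios to a relative tolerance of 1e-11. From these ratios whole fragments were recovered for each of the 16557 genes detected in 2 or more libraries, together with library totals. Both this step and the limma fit were tested on simulated data. Pairs of replicates differed by a mean chi-square of 2.11 to 6.79 per gene, above the value for sampling noise, and all 8 libraries were kept. The precision of Chac1 and Trib3 is limited by their fragment counts.

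By rule, full statistics went to the 12 of the 35 genes with the largest called changes and to Atf4, Atf5, Ddit3 and Asns. The rule left the other members to ranges and counts; values of some of them, such as those with calls that changed between settings, were added after they were seen. Of each related list, at most 4 called genes with the largest changes were named. Some genes that this rule names are not reported here. Slc7a11 and Slc7a5 were set side by side, and Eif2ak4, Ppp1r15a, the ATF4 targets that fell and single cell type markers were singled out, after their values were seen. The 35 genes, roles and lists were chosen with earlier results of these data known. Positions came from RefSeq by NCBI gene number, which matched all 35, and exon overlaps from GENCODE M21. Castor1, Castor2, Samtor and Pet112 had no row under these symbols.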

Additional observations from a re-analysis of the deposited data

Results flagged for a closer look

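In groups of 4 libraries, 1 value was marked where its gap to the nearest other library was above Dixon's 95% critical share of the range of the group. Of 134 groups examined 2 were marked, fewer than the 1 in 20 that chance gives. Sars in untreated library 3 stood at 29.7 FPKM, below the other 3 at 31.6 to 31.8 FPKM. Chac1 in cocktail library 2 stood at 1.98 FPKM, above the other 3 at 1.43 to 1.51 FPKM.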

How the results depend on the processing

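Over the 18 alternatives run, the count of the 35 genes called higher ran from 18 to 23 (20 as reported) and lower from 8 to 9 (8 as reported). Among all genes, 4281 rose and 3976 fell after median-ratio rescaling, against 3151 and 4872 as deposited. Voom on recovered fragments called 3164 and 4909. Rescaling divided untreated libraries by 1.03 and cocktail libraries by 0.97 to 0.98. With it the median log2 change over all genes went from -0.05 to 0.02. Why the groups differed in these factors was not tested. Among related lists, mitochondrial synthetases called higher were 5 as reported, 3 with a mean FPKM of at least 5, which tests fewer genes, and 10 after rescaling. With that stricter filter other ATF4 targets called lower were 3 in place of 5, and serine, glycine and folate enzymes 2 higher and 5 lower in place of 4 and 11. The 4 higher became 2 without cocktail libraries 3 and 4. Genes of mTORC1 sensing called higher were 11 after rescaling, in place of 7. In the eIF2 list the 2 called lower became 1 without the filter, 0 after rescaling, 0 without cocktail libraries 3 and 4, 0 without cocktail libraries 1 and 2, and 0 to 2 when 1 library was left out (0 without untreated library 3 or cocktail library 2 or 4, and 1 without untreated library 1, 2 or 4 or cocktail library 3). With the replicate number as a block, 1 was called lower there.

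The labels number replicates 1 to 4 in both groups without saying that numbers pair cultures. Same-numbered libraries had correlations of deviations of -0.04, 0.08, 0.09 and -0.01, so they were not treated as pairs. With the block, 3121 genes rose and 4829 fell, and of the 35 genes 20 and 8, with Asns gained and Yars lost (adjusted p = 0.036 and 0.065).

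An edgeR fit of the recovered fragments was listed as an alternative and not run. Voom was used on these fragments in its place. Depth limits Chac1 (45 to 64 fragments per library) and Trib3 (17 to 50).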

Other observations

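Genes of amino acid sensing upstream of mTORC1, the kinase complex that couples amino acids to growth, were read beside the fall of Sesn2. Of 28 tested genes 7 rose (25.0%) and 12 fell (42.9%), near the 26.6% and 41.1% of all genes. The median log2 change of the list was -0.03, against -0.05 over all genes. Sesn1, a relative of Sesn2, fell from 25.7 ± 0.622 to 16.3 ± 0.556 FPKM (SD, n = 4), and the Rag GTPase genes Rragd and Rragb had log2 changes of -0.52 and -0.46. Wdr59, a subunit of an upstream regulator, rose with a log2 change of 0.54. After median-ratio rescaling 11 genes of this list rose.

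All 10 genes taken as markers of the inflammatory response rose, against 26.6% of all genes. Ccl2, a chemokine, led with 23.2-fold, before Sod2, 12.4-fold, Tnfaip3, 10.1-fold, and Gbp2, 7.05-fold. These 10 were chosen as controls of that response, with earlier results of these data known, so their rise was largely set by the choice. Their median log2 change was 2.10, against 0.13 for the 34 tested genes of tRNA charging and the amino acid response.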
